A study of Bos taurus with 18 samples.

Results

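Laminins, nidogens and perlecan are the adhesive glycoproteins and the heparan sulphate proteoglycan of basement membranes, and the 10 of these genes named here were followed across 4 compartments of the cattle ovary. They were LAMA2, LAMA3, LAMA4 and LAMA5 (laminin alpha chains), LAMB1 and LAMB2 (beta chains), LAMC1 (the gamma 1 chain), NID1 and NID2 (nidogens) and HSPG2 (perlecan). Each gene was read from 1 transcript cluster, the array's summary of the probes for a transcript region, and all 10 of 10 were found among the 18010 genes that the array's annotation names singly. Only LAMA4 had more than 1 such cluster, and its brightest one was taken.

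The samples came from non-pregnant Bos taurus cows, with 1 ovary taken per animal at an abattoir. Ages of the cows and the number of animals in a pool were not stated in the labels. Theca, the steroid-producing wall around the follicle, came from the dissection of small healthy antral follicles (under 5 mm), and each of its 6 arrays held 1 follicle from 1 animal. The other compartments, namely tunica albuginea (the dense layer beneath the ovarian surface), interstitial stroma and the stroma close to follicles, were excised by laser microdissection of stained frozen cortex. Each had 4 arrays, and each array held material pooled from different animals. Theca RNA was also extracted with a different kit, so collection, pooling, kit and compartment cannot be told apart in any difference between theca and the rest. The p-values rest on 1 spread per cluster, estimated over all 18 arrays. Those among laser-captured compartments thus mix the spread between pools with that between single-animal theca arrays. The pools may share animals.

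Values are log2 signals after the authors' RMA, so a difference of 1 is a 2-fold difference. Every array had a median of 4.1, and a signal near or under that may be background. A gene was called higher or lower when limma's Benjamini-Hochberg adjusted p over all 26773 clusters was under 0.05. Levels of different genes cannot be compared, since each depends on its own probes. In whole-tissue RNA, fewer cells of a type and less RNA per cell cannot be told apart.

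A laminin is a trimer of an alpha, a beta and a gamma chain, and the alpha chain carries the main sites that cell-surface integrins and dystroglycan bind. Laminin trimers polymerise at the cell surface, and nidogens and perlecan tie this sheet to the network of type IV collagen. In the ovary, basement membranes lie beneath the granulosa layer of each follicle, around the capillaries of the theca, around smooth muscle cells and beneath the surface epithelium.

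The genes divided into opposite patterns. LAMA4, LAMB1, LAMC1 and NID2 were higher in theca than in each other compartment. LAMA3, LAMB2 and HSPG2 were lowest in theca and highest in tunica albuginea. LAMA2 and NID1 were called higher in theca than in some compartments only, and LAMA5 was not called in any comparison. The F test over the 4 compartments called 9 of the 10 genes (36.4% of all clusters), with LAMA5 at adjusted p = 0.869.

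**Figure D1:**
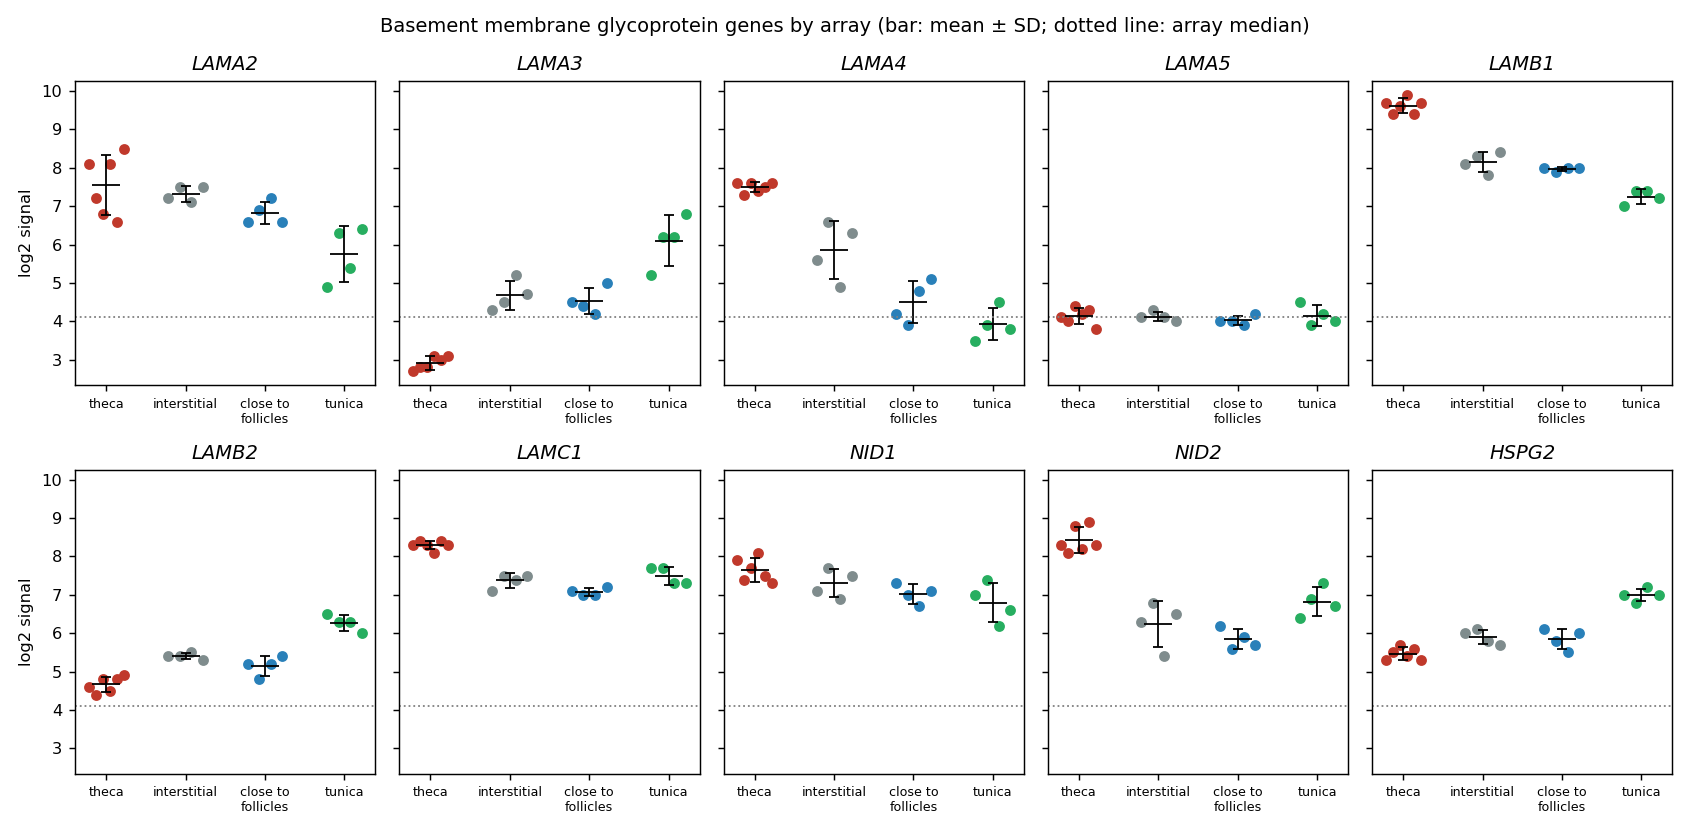
Log2 signal (vertical axis) of each of the 10 genes in every array, by compartment, with 6 theca arrays and 4 arrays in each other compartment. Points are arrays, the black bar is the mean with its SD, and the dotted line is the array median of 4.1. Theca arrays lie above all others for LAMA4, LAMB1, LAMC1 and NID2 and below all others for LAMA3.

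Among the alpha chains, LAMA4 (cluster 12896371) encodes alpha 4, a chain of vascular, muscle and nerve basement membranes. In theca its log2 signal ran from 7.3 to 7.6 with a median of 7.55. In interstitial stroma the 4 arrays read 5.6, 6.6, 4.9 and 6.3, in stroma close to follicles 4.2, 3.9, 4.8 and 5.1, and in tunica albuginea 3.5, 3.9, 4.5 and 3.8. Every theca array was above every other array, and the tunica arrays overlapped with those from stroma close to follicles. Theca exceeded interstitial stroma by 1.65 ± 0.28 (SE, limma adjusted p = 0.000269), stroma close to follicles by 3.0 ± 0.28 (adjusted p = 3.99e-07) and tunica albuginea by 3.58 ± 0.28 (adjusted p = 4.08e-08). Because 3 of the 4 tunica arrays were under the array median, that last difference is a lower limit where the signal is background. In stroma close to follicles 1 of the 4 arrays was under it. Differences of theca and interstitial stroma from either compartment may thus be lower limits in size. Tunica albuginea was also lower than interstitial stroma (-1.93 ± 0.31, adjusted p = 0.00295). Stroma close to follicles differed from interstitial stroma by -1.35 ± 0.31 without passing (adjusted p = 0.157).

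The array held 2 further clusters for LAMA4, and they ordered the compartments in the same way. The second cluster had means of 6.85 in theca, 4.73 in interstitial stroma, 4.25 in stroma close to follicles and 3.75 in tunica albuginea. The third had means of 6.67, 4.83, 4.1 and 3.7 in that order. In both clusters the means of stroma close to follicles and tunica albuginea were near or under the array median of 4.1. Where that signal is background, their order is not fixed and differences from them are lower limits in size. Over the averaged laser-captured compartments, theca was higher by 2.74 ± 0.22, 2.61 ± 0.19 and 2.46 ± 0.18 by the 3 clusters (limma adjusted p = 2.43e-08, 5.14e-09 and 9.89e-09). Between tunica albuginea and interstitial stroma the clusters disagreed on the call, with -0.98 ± 0.26 by the second (adjusted p = 0.0736) and -1.13 ± 0.26 by the third (adjusted p = 0.0336).

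LAMA3 (cluster 12808998) encodes alpha 3, the chain of epithelial laminins that anchor cells at hemidesmosomes. Its theca signal lay between 2.7 and 3.1, with a median of 2.9, below the array median on all 6 arrays. Interstitial stroma read 4.3, 4.5, 5.2 and 4.7, stroma close to follicles 4.5, 4.4, 4.2 and 5.0, and tunica albuginea 5.2, 6.2, 6.2 and 6.8. Both stromal compartments overlapped with each other, and the lowest tunica array equalled the highest interstitial one. LAMA3 was lower in theca than in every other compartment. Differences of theca were -1.76 ± 0.24 from interstitial stroma (SE, limma adjusted p = 2.82e-05), -1.61 ± 0.24 from stroma close to follicles (adjusted p = 6.30e-05) and -3.18 ± 0.24 from tunica albuginea (adjusted p = 2.26e-08). These are lower limits in size if the theca signal is background. Tunica albuginea exceeded interstitial stroma by 1.43 ± 0.26 (adjusted p = 0.00803) and stroma close to follicles by 1.58 ± 0.26 (adjusted p = 0.0019), and the first of these calls was lost in a fit on the groups compared (adjusted p = 0.088).

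LAMA2 (cluster 12896143) encodes alpha 2, the chain of muscle and peripheral nerve basement membranes. It spread widely among theca arrays, from 6.6 to 8.5 with a median of 7.65. The values were 7.2, 7.5, 7.1 and 7.5 in interstitial stroma, 6.6, 6.9, 7.2 and 6.6 in stroma close to follicles, and 4.9, 6.3, 5.4 and 6.4 in tunica albuginea. All tunica arrays lay under all other arrays, while theca overlapped with both stromal compartments. Theca exceeded tunica albuginea by 1.80 ± 0.35 (SE, limma adjusted p = 0.000654). Its difference from interstitial stroma was 0.23 ± 0.35, with a 95% interval of -0.51 to 0.96, and that from stroma close to follicles was 0.73 ± 0.35 (interval -0.01 to 1.46). Neither passed (adjusted p = 0.679 and 0.129). Tunica albuginea was lower in LAMA2 than interstitial stroma (-1.58 ± 0.38, adjusted p = 0.0469), a call lost in 11 of the 18 fits that left out 1 array, where the adjusted p reached 0.141 without tunica albuginea replicate 1. Fitting only the arrays of those groups gave adjusted p = 0.0615.

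LAMA5 (cluster 12714256), the alpha 5 chain of mature vascular and epithelial basement membranes, read close to the array median everywhere. Its 18 values lay within 0.7 log2 units, and the compartment means were 4.13, 4.13, 4.03 and 4.15 in theca, interstitial stroma, the stroma near follicles and tunica albuginea. Theca minus the averaged laser-captured compartments gave 0.03 ± 0.10 (95% interval -0.18 to 0.25; limma adjusted p = 0.826). A signal at this level may be background, and then it says nothing about the transcript.

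Of the beta chains, LAMB1 (cluster 12854492), the beta 1 chain of most laminins, had the smallest adjusted p of the 10 genes when theca was set against the averaged other compartments. Theca arrays read 9.4 to 9.9 with a median of 9.65. The values were 8.1, 8.3, 7.8 and 8.4 in interstitial stroma, 8.0, 7.9, 8.0 and 8.0 in stroma close to follicles, and 7.0, 7.4, 7.4 and 7.2 in tunica albuginea. Theca stood above and tunica albuginea below every other array, and only the 2 stromal compartments overlapped. Theca exceeded interstitial stroma, stroma near follicles and tunica albuginea by 1.47 ± 0.13, 1.64 ± 0.13 and 2.37 ± 0.13 (SE, limma adjusted p = 2.72e-07, 5.92e-08 and 5.23e-10). Tunica albuginea was lower than interstitial stroma (-0.90 ± 0.14, adjusted p = 0.00278) and than stroma close to follicles (-0.73 ± 0.14, adjusted p = 0.00747).

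LAMB2 (cluster 12795865) encodes beta 2, the alternative to beta 1 that is found at neuromuscular synapses and in the kidney glomerulus. It ran the other way. Theca arrays read 4.4 to 4.9 with a median of 4.7, and tunica albuginea 6.5, 6.3, 6.3 and 6.0. Interstitial stroma read 5.4, 5.4, 5.5 and 5.3, and stroma close to follicles 5.2, 4.8, 5.2 and 5.4. Tunica albuginea was above all other arrays, and theca overlapped only with stroma close to follicles. Differences of theca were -0.73 ± 0.13 from interstitial stroma, -0.48 ± 0.13 from stroma close to follicles and -1.61 ± 0.13 from tunica albuginea (SE, limma adjusted p = 0.00043, 0.00994 and 6.44e-08). Tunica albuginea exceeded interstitial stroma by 0.88 ± 0.15 (adjusted p = 0.00395) and stroma close to follicles by 1.13 ± 0.15 (adjusted p = 0.000176).

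LAMC1 (cluster 12736592) encodes gamma 1, the partner shared by most laminins. Theca arrays lay at 8.1 to 8.4, with a median of 8.3. The arrays read 7.1, 7.5, 7.4 and 7.5 in interstitial stroma, 7.1, 7.0, 7.0 and 7.2 in stroma close to follicles, and 7.7, 7.7, 7.3 and 7.3 in tunica albuginea. Theca did not overlap with any other compartment, and tunica albuginea overlapped with interstitial stroma. In the same order of compartments, LAMC1 was higher in theca by 0.93 ± 0.12, 1.23 ± 0.12 and 0.80 ± 0.12 (SE, limma adjusted p = 1.16e-05, 4.31e-07 and 4.20e-05). It was not called among the laser-captured compartments, where the tunica difference was 0.13 ± 0.13 from interstitial stroma (95% interval -0.14 to 0.39; adjusted p = 0.752) and 0.43 ± 0.13 from stroma close to follicles (adjusted p = 0.0774).

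The nidogens bind the laminin gamma 1 chain and type IV collagen. NID2 (cluster 12695283) read 8.1 to 8.9 in theca with a median of 8.3. It read 6.3, 6.8, 5.4 and 6.5 in interstitial stroma, 6.2, 5.6, 5.9 and 5.7 in stroma close to follicles, and 6.4, 6.9, 7.3 and 6.7 in tunica albuginea. Theca was clear of every other array, and tunica albuginea was clear of stroma close to follicles but not of interstitial stroma. Theca exceeded interstitial stroma by 2.18 ± 0.24, stroma close to follicles by 2.58 ± 0.24 and tunica albuginea by 1.61 ± 0.24 (SE, limma adjusted p = 2.80e-06, 3.57e-07 and 5.72e-05). NID2 was higher in tunica albuginea than in stroma close to follicles by 0.98 ± 0.27 at adjusted p = 0.0477, and 13 of the 18 fits without 1 array lost that call, with an adjusted p of up to 0.156 without tunica albuginea replicate 3. A fit on the groups compared lost it too (adjusted p = 0.0577).

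NID1 (cluster 12828494) varied less between compartments. Theca arrays ran from 7.3 to 8.1 with a median of 7.6. The values were 7.1, 7.7, 6.9 and 7.5 in interstitial stroma, 7.3, 7.0, 6.7 and 7.1 in stroma close to follicles, and 7.0, 7.4, 6.2 and 6.6 in tunica albuginea. Every compartment overlapped with theca. Theca exceeded tunica albuginea by 0.85 ± 0.22 (SE, limma adjusted p = 0.00608) and stroma close to follicles by 0.63 ± 0.22 (adjusted p = 0.0389). The second of these calls was lost in 6 of the 18 fits that left out 1 array, with an adjusted p of up to 0.123 without replicate 3 of that stroma. Against interstitial stroma the difference was 0.35 ± 0.22 and did not pass (adjusted p = 0.259).

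HSPG2 (cluster 12775110) encodes perlecan, the heparan sulphate proteoglycan that binds growth factors in basement membranes. In tunica albuginea the arrays read 7.0, 6.8, 7.2 and 7.0. The other arrays read 6.0, 6.1, 5.8 and 5.7 in interstitial stroma, 6.1, 5.8, 5.5 and 6.0 in stroma close to follicles, and 5.3 to 5.7 with a median of 5.45 in theca. Tunica albuginea was above every other array, and theca overlapped with both stromal compartments. Tunica albuginea exceeded interstitial stroma by 1.10 ± 0.15 (SE, limma adjusted p = 0.000534) and stroma close to follicles by 1.15 ± 0.15 (adjusted p = 0.000149), and theca minus tunica albuginea was -1.53 ± 0.13 (adjusted p = 1.06e-07). The theca differences from interstitial stroma (-0.43 ± 0.13, adjusted p = 0.0198) and stroma close to follicles (-0.38 ± 0.13, adjusted p = 0.0351) were small. Leaving out 1 array ended the first of them in 2 of 18 fits, without interstitial stroma replicate 1 or 2 (adjusted p = 0.0594 and 0.0757), and the second in 6 of 18 (up to 0.131, without replicate 1 of the stroma close to follicles).

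**Figure D2:**
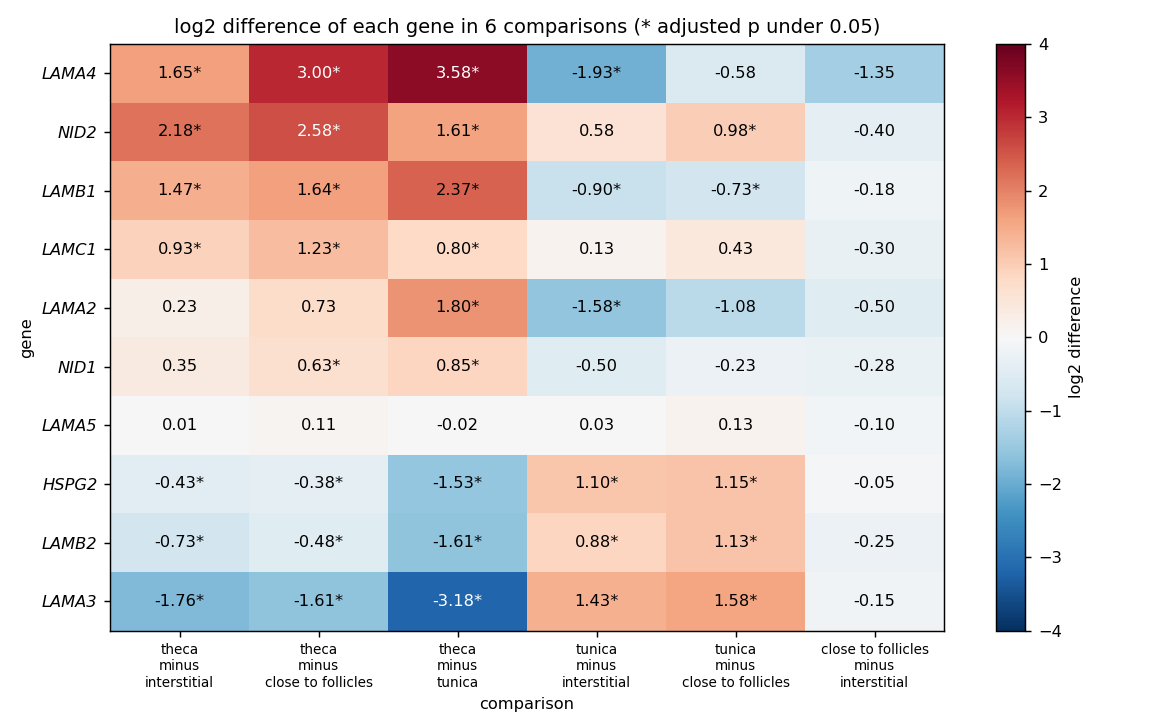
Log2 difference of each gene (rows) in the 6 comparisons of compartments (columns), with the value in each cell, red for higher and blue for lower in the compartment named first. An asterisk marks an adjusted p under 0.05 by limma. LAMA4, NID2, LAMB1 and LAMC1 carry positive calls in all 3 theca columns, LAMA3, LAMB2 and HSPG2 negative ones, and the last column has no call.

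Counted by comparison, theca was higher than interstitial stroma for 4 of the 10 genes (14.4% of all clusters) and lower for 3 (14.6%), and for 6 the arrays did not overlap (19.3%). Against stroma close to follicles 5 were higher (15.4%) and 3 lower (15.6%), with 5 not overlapping (18.7%). Against tunica albuginea 6 were higher (16.3%) and 3 lower (18.1%), with 8 not overlapping (21.2%). Against the 3 laser-captured compartments averaged 6 were higher (19.6%) and 3 lower (22.2%), and 5 of the 10 did not overlap with any of the 12 laser-captured arrays (10%). The median difference of the 10 genes was 0.29, 0.68, 0.83 and 0.76 in these comparisons, beside -0.02, -0.03, -0.05 and -0.04 over all clusters. With each array centred on its brightest 60% of clusters, the higher share of all calls fell from 49.7% to 39.5% against stroma close to follicles and from 47.5% to 36.6% against tunica albuginea. Without the 40% dimmest clusters it rose instead, to 56.0% and 56.3%. These comparisons share the theca arrays and are not independent of each other.

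Tunica albuginea was higher than interstitial stroma for 3 of the 10 genes, LAMA3, LAMB2 and HSPG2 (0.945% of all clusters), and lower for 3, LAMA2, LAMA4 and LAMB1 (0.575%). For 5 of them the arrays of the 2 compartments did not overlap (5.85%). Against stroma close to follicles 4 were higher, LAMA3, LAMB2, NID2 and HSPG2 (1.85%), and LAMB1 alone was lower (1.95%), with 7 not overlapping (6.6%). The median difference of the 10 genes was 0.08 and 0.28 in these comparisons, and 0.02 over all clusters in each. A fit on the groups compared called 4 genes against both compartments, since it lost LAMA2 and LAMA3 against interstitial stroma (adjusted p = 0.0615 and 0.088) and NID2 against stroma close to follicles.

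No gene of the 10 was called between stroma close to follicles and interstitial stroma by limma, in either direction (0.0336% of all clusters higher, 0% lower) and none was free of overlap (2.59%). At an unadjusted p under 0.05 there were 2, LAMA4 and LAMC1, beside 8.12% of all clusters. All 10 differences were below 0, from -1.35 for LAMA4 to -0.05 for HSPG2, where 47.3% of all clusters were below 0. The 10 genes share their arrays, so this direction is a description. Without interstitial stroma replicate 3 the LAMA4 difference became -1.67 and passed (adjusted p = 0.0318), and that of LAMA3 turned to 0.03 (adjusted p = 0.991).

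Interstitial stroma replicate 3 lay at the edge of its compartment for several of these genes. It was the lowest of the 4 for LAMA4 (4.9), LAMB1 (7.8), NID1 (6.9), NID2 (5.4) and LAMA2 (7.1), and the highest for LAMA3 (5.2) and LAMB2 (5.5). Its mean over the endothelial markers was 4.39, against 4.99 to 5.26 on the other interstitial arrays. It was also the lowest of the 4 for pericyte and smooth muscle markers (5.51, against 5.85 to 6.21) and immune markers (4.05, against 4.29 to 4.86). The part of these cell types in its values was not tested. Without replicate 3, theca exceeded interstitial stroma by 1.33 for LAMA4, 1.90 for NID2 and 1.35 for LAMB1, and all were still called.

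Markers of other cell types were read on the same arrays, and their calls can be set beside 19.6% of all clusters higher and 22.2% lower in theca against the 3 others averaged. The markers of steroid-producing theca cells followed the labels: INSL3, a hormone of these cells, averaged 10.87 in theca and at most 3.62 elsewhere, and CYP17A1 and LHCGR behaved likewise (9.10 and 9.17 in theca, at most 3.60 and 2.85 elsewhere). Of 18 endothelial markers, 13 were higher in theca than in the mean of the other compartments and 1 was lower. The mean log2 signal of these 18 genes was 5.64 to 5.96 over theca arrays, 4.39 to 5.26 in interstitial stroma, 4.25 to 4.68 in stroma close to follicles and 4.23 to 4.32 in tunica albuginea, with no overlap between theca and the rest. The largest differences were those of PTPRB, a vascular phosphatase (3.22 ± 0.19), the junction proteins PECAM1 (2.86 ± 0.22) and CDH5 (2.75 ± 0.29), and KDR, a VEGF receptor (2.16 ± 0.22). PTPRB was under the array median on all 8 arrays of tunica albuginea and the stroma near follicles, and PECAM1 and CDH5 on all 4 tunica arrays, so their differences are lower limits where that signal is background and their order is not fixed. In tunica albuginea 11 of the 18 averaged under 4.1, PECAM1 (3.40) and CDH5 (3.53) included. Against interstitial stroma, 5 of the 18 were lower in tunica albuginea (0.575% of all clusters) and 1 was higher (0.945%). The part of endothelial cells in the differences of LAMA4, LAMB1 and NID2 was not tested.

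**Figure D3:**
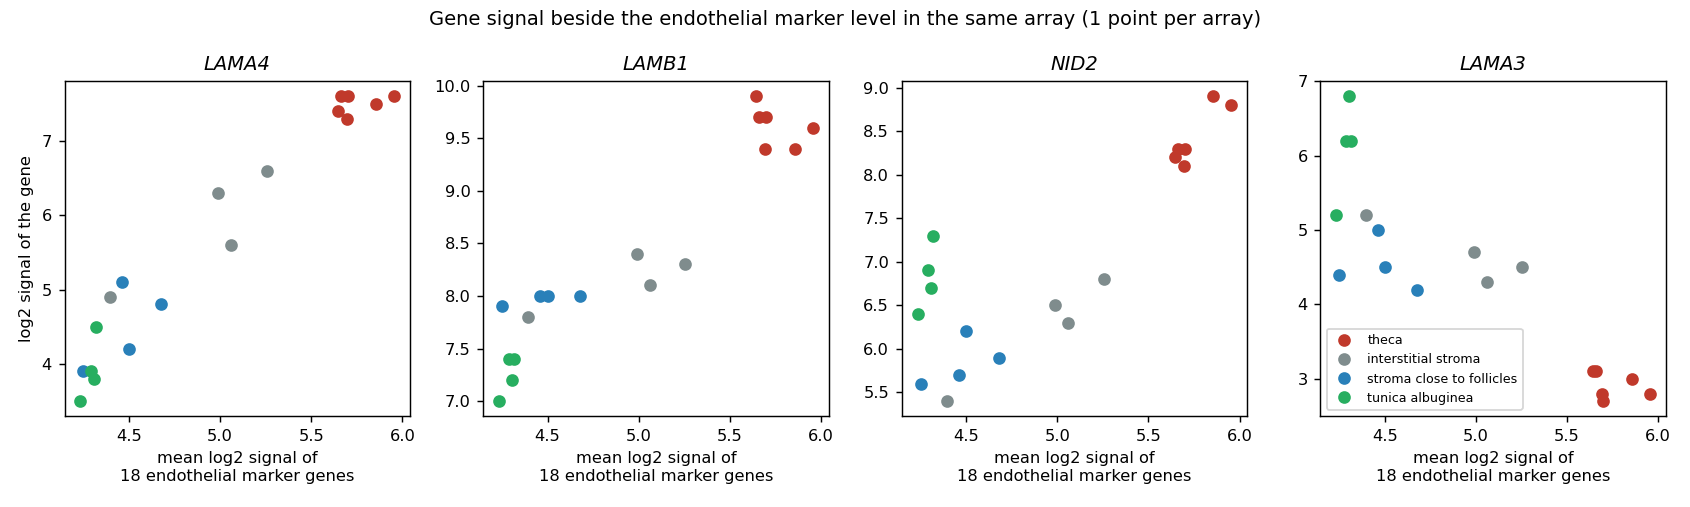
Log2 signal of LAMA4, LAMB1, NID2 and LAMA3 (vertical axes, each with its own range) against the mean log2 signal of 18 endothelial marker genes in the same array (horizontal axis). Each point is 1 of 18 arrays, coloured by compartment. LAMA4 and the marker mean are both highest in theca and both low in tunica albuginea. NID2 reads 6.4 to 7.3 in tunica albuginea, at a marker mean of 4.23 to 4.32. In stroma close to follicles NID2 reads 5.6 to 6.2, at an overlapping marker mean of 4.25 to 4.68. That NID2 difference was not called in all fits, and the part of endothelial cells was not tested.

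The other cell types gave the following counts for theca against the 3 others averaged, to be read beside the same 19.6% higher and 22.2% lower. Pericyte and smooth muscle markers were higher for 5 and lower for 7 of 14, with the pericyte gene RGS5 higher by 3.15 ± 0.37 and the smooth muscle myosin MYH11 lower (-2.30 ± 0.16), and their mean ran from 5.16 to 5.61 in theca and 5.29 to 6.21 elsewhere. Granulosa cell markers were higher for 7 and lower for 3 of 11, and their mean was 5.31 to 5.84 in theca and 4.43 to 4.66 elsewhere. INHA, INHBA and FST averaged 7.5, 7.6 and 7.2 in theca and at most 5.1, 5.4 and 4.1 elsewhere. CYP19A1 and FOXL2 were under the array median on all 6 theca arrays and on all other arrays. Surface epithelium markers were higher for 4 and lower for 3 of 12 (means of 3.67 to 4.12 and 3.34 to 3.81), nerve and Schwann cell markers for 1 and 3 of 8 (3.93 to 4.23 and 4.1 to 4.54), immune markers for 6 and 0 of 15 (4.59 to 4.97 and 3.71 to 4.86), and fibroblast markers for 4 and 4 of 9 (7.99 to 8.62 and 7.43 to 9.01). In tunica albuginea, where LAMA3 was highest, 10 of the 12 epithelial markers averaged under 4.1. Against interstitial stroma 1 of the 12 was lower, EPCAM (-1.10 ± 0.22), and 0 were higher (0.575% and 0.945% of all clusters). The part of these cell types in the results was not tested.

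Among the remaining laminin chains, 3 genes were analysed here. LAMC3, the gamma 3 chain, was higher in theca than in the mean of the other compartments by 1.28 ± 0.15 (SE, limma adjusted p = 1.78e-06), with means of 4.97 in theca and 3.65 to 3.75 elsewhere, under the array median, so that this difference too may be a lower limit. LAMA1, the alpha 1 chain of early embryonic basement membranes, was lower (-0.87 ± 0.15, adjusted p = 0.000137), at 8.22 in theca, 8.98 in both stromal compartments and 9.30 in tunica albuginea. LAMB3, the beta 3 partner of alpha 3 in epithelia, averaged 3.63 to 3.88 in the 4 compartments and was not called (-0.01 ± 0.11, adjusted p = 0.961). All 4 means were under the array median, so its signal may be background, and then it says nothing about the transcript. None of the 3 was called among laser-captured compartments.

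The type IV collagens, agrin and other components of basement membranes moved in both directions. Of 20 measured genes 11 were higher in theca than in the mean of the other compartments, 5 were lower and 4 were not called (19.6% and 22.2% of all clusters higher and lower), and the median difference was 0.55. Those lower in theca were led by SMOC1, a secreted calcium-binding matrix protein (-3.02 ± 0.18, SE, limma adjusted p = 5.38e-10), FREM2, of the Fraser complex (-2.39 ± 0.24, adjusted p = 4.25e-07), and HMCN1, or hemicentin (-1.98 ± 0.23, adjusted p = 1.88e-06). SMOC1 and FREM2 were under the array median on all 6 theca arrays, so their differences are lower limits in size where that signal is background. EGFLAM, or pikachurin, a dystroglycan ligand of the retina, was higher by 1.89 ± 0.22 (adjusted p = 1.65e-06). Of type IV collagen, COL4A1 (1.80 ± 0.11), COL4A2 (1.13 ± 0.12), COL4A3 (0.98 ± 0.25) and COL4A4 (1.25 ± 0.15) were higher, while COL4A5 (-0.02 ± 0.22) and COL4A6 (-0.30 ± 0.20) did not pass. Theca arrays of COL4A3 (5.4 to 6.7) overlapped with stroma close to follicles (4.7 to 6.2) and tunica albuginea (4.5 to 5.8). Those of COL4A1, COL4A2 and COL4A4 overlapped with no other compartment. COL4A6 was under the array median on all 6 theca and all 4 tunica arrays, so its signal says little either way. COL4A5 was under it on 2 theca and 2 tunica arrays. These collagens were chosen from the list after their values were seen. In tunica albuginea SPARC, a collagen-binding glycoprotein, alone was higher than in interstitial stroma, by 0.55 ± 0.11 (adjusted p = 0.0161). None of the 20 was lower, beside 0.945% of all clusters higher and 0.575% lower. A fit on the groups compared called none of the 20, beside 204 of all 26773 clusters. Against stroma close to follicles COL15A1 (1.28 ± 0.24), HMCN1 (1.23 ± 0.32), NPNT, or nephronectin (1.05 ± 0.26), and SPARC (0.80 ± 0.11) were higher. None was lower, beside 1.85% of all clusters higher and 1.95% lower. When only the groups compared were fitted, 2 of the 20 were called, beside 434 of all 26773 clusters.

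Receptors for laminin and their partners showed no common direction in theca, with 5 of 20 higher, 5 lower and a median of 0.12, close to the 19.6% and 22.2% of all clusters. DAG1, dystroglycan, was higher by 1.73 ± 0.18 (SE, limma adjusted p = 4.24e-07), and SDC4, a syndecan, was lower (-2.89 ± 0.14, adjusted p = 4.61e-11), with 3 of the 6 theca arrays under the array median. DMD, or dystrophin (-1.47 ± 0.22), and SGCD, a sarcoglycan (-1.15 ± 0.20), were lower as well. ITGB1, the beta 1 chain that pairs with the laminin-binding integrin alpha chains, averaged 9.93 in theca and 8.88 to 9.10 elsewhere with no overlap of arrays, a difference of 0.97 ± 0.09 (adjusted p = 1.83e-07). Its partner ITGA6 was not called (0.13 ± 0.20, adjusted p = 0.657). ITGA7 was under the array median on all 18 arrays and ITGA3 on 12, so their signals say nothing either way. These integrins were named after their values were seen. In tunica albuginea against interstitial stroma DAG1 (1.13 ± 0.25), the integrin chains ITGA9 (0.93 ± 0.20) and ITGA1 (0.88 ± 0.21) and CD151, a tetraspanin bound to integrins, were higher (0.75 ± 0.16 for CD151, named because only 5 were called), while DMD was lower (-1.45 ± 0.31). Of the 20 genes, 4 were thus higher (0.945% of all clusters) and 1 was lower (0.575%). A fit on the groups compared called none of these 5, beside 204 of all 26773 clusters. Against stroma close to follicles 4 of the 20 were higher (1.85% of all clusters) and 2 lower (1.95%). They were led by DMD (-1.63 ± 0.31), ITGA1 (1.25 ± 0.21), ITGA6 (-1.20 ± 0.29) and CD151 (0.83 ± 0.16). The fit on the groups compared called 3 of the 20, beside 434 of all 26773 clusters.

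**Figure D4:**
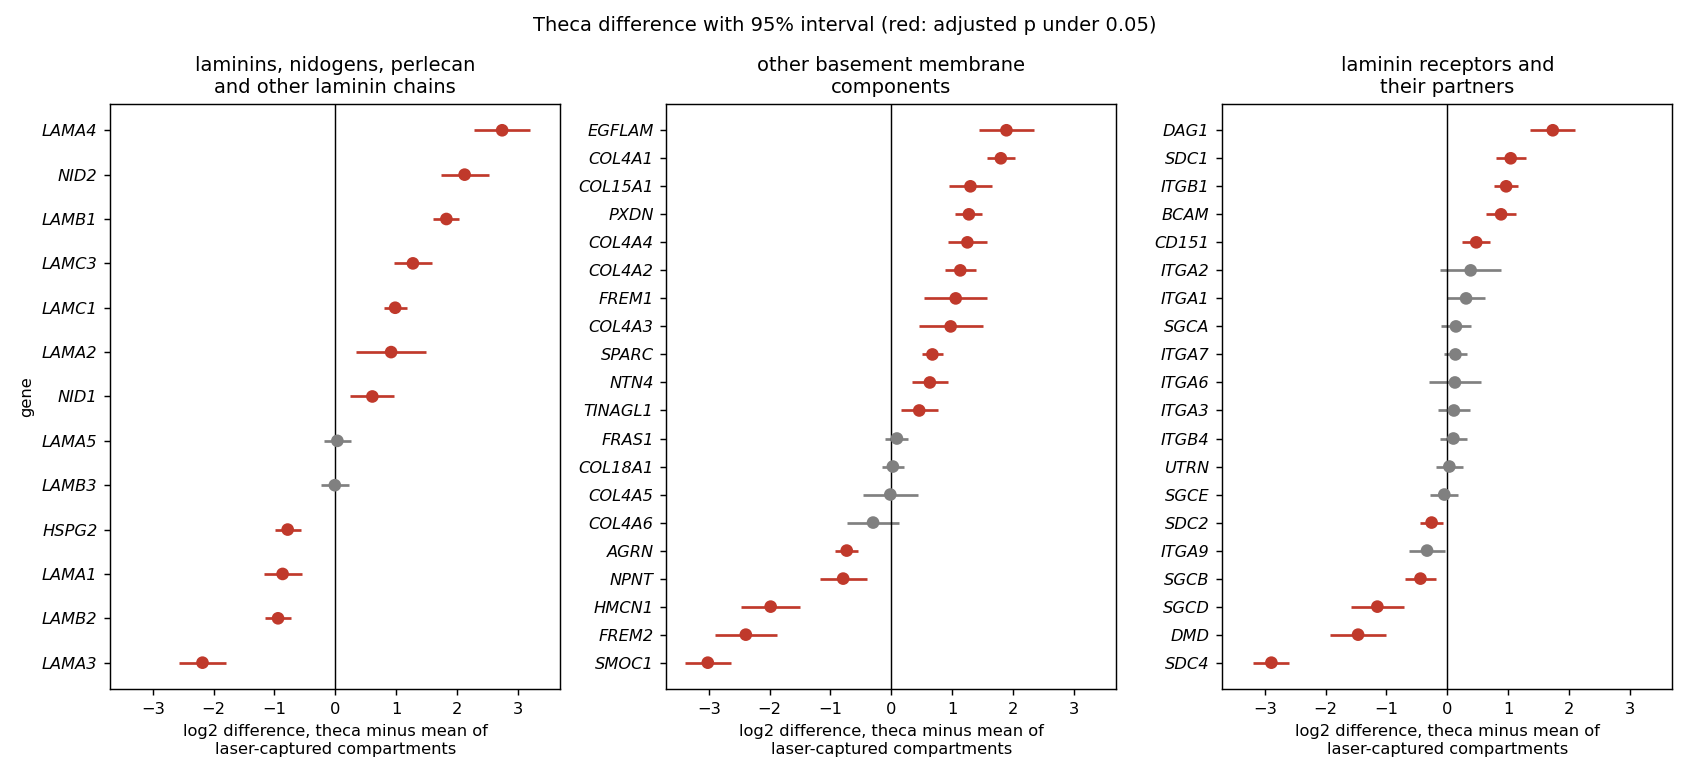
Log2 difference of theca from the 3 laser-captured compartments averaged (horizontal axes) for the 10 genes with the other laminin chains, for other basement membrane components and for laminin receptors and their partners. Points are limma estimates over 18 arrays, lines are 95% intervals, red marks an adjusted p under 0.05 and grey the rest. LAMA4 (2.74) and LAMA3 (-2.18) mark the ends of the first panel, and SMOC1 (-3.02) and SDC4 (-2.89) the lower ends of the others.

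Likeness of pattern was measured as the root mean square difference, over the 18 arrays, between the deviations of 2 genes from their own means, so 0 is an identical pattern. Within the 10 genes LAMB2 and HSPG2 were the closest pair (0.248), and LAMA3 and LAMA4 the farthest apart (2.64). LAMC1 and NID1 followed at 0.419, which is little below their own root mean square deviations of 0.506 and 0.462, and the short distances of LAMA5 likewise reflect its flat signal. Among the 18000 other genes, those nearest to LAMA4 were CAV1 (0.401), ADGRF5 (0.426) and NOSTRIN (0.502), beside a root mean square deviation of 1.51 for LAMA4 itself. Nearest to LAMA3 were PTGER2 (0.362), SASH1 (0.412) and NDP (0.414), and nearest to LAMA2 were FREM1 (0.439), ROBO1 (0.460) and CRYBG3 (0.499). LAMB1 was nearest to PRSS23 (0.257), TC2N (0.295) and COL4A1 (0.300), the type IV collagen chain. NID2 was nearest to NRP1 (0.298), COL1A2 (0.365) and CDKN2C (0.381). LAMB2 was nearest to SAMD4A (0.217), SMARCD3 (0.223) and ISLR2 (0.224), and HSPG2 to SPATA18 (0.222), SLC29A1 (0.224) and ECE2 (0.245). LAMC1 was nearest to KCNK3 (0.172), LOC515570 (0.174) and PCYOX1 (0.175), NID1 to GSTM2 (0.266), OLFML2A (0.270) and CNOT6 (0.271), and LAMA5 to RAB19 (0.118), ACTL7A (0.123) and SCN11A (0.128). Each distance mixes the contrast between theca and the rest with variation among arrays of 1 compartment.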

How the data were processed

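Total RNA of 18 samples was amplified, labelled with biotin and hybridised to 1 single-colour array each, per the labels' protocols. The deposited log2 values were made by the authors with RMA and Partek 6.5, per the submitters' processing notes, and hold 1 decimal. Every array has the same median, so a shift common to most genes cannot be seen, and the table gives no detection call. The array's genome build was not given in the sources used here.

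Groups came from the sample titles. A label calling every sample thecal was not used. Replicates shared 9.12% to 14.0% identical values, so none counted as a duplicate. Gene names came from the platform's annotation (18457 clusters with 1 symbol, 688 with several), and all 10 matched the RefSeq gene table. No sequence tables were used here.

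limma 3.58.1 in R 4.3.3 was fitted to all 26773 clusters with 1 mean per compartment, eBayes moderation and Benjamini-Hochberg adjustment at 0.05, and was tested on simulated data. SE is the moderated error. Deviations of same-numbered arrays from their compartment means correlated at 0.0955 to 0.145 between interstitial stroma and tunica albuginea. In the other pairs of compartments they correlated at -0.0479 to 0.0763. No pair of compartments was over 0.1 for all numbers, so the numbers were not taken as pairs. Whether the pools of interstitial stroma and tunica albuginea were matched was not tested. Named genes are the 10 members, up to 4 called genes of each list with the largest differences, and the 3 nearest genes in pattern. The members and lists were chosen with earlier results of these data known. The alternatives were a fit on the groups compared, array weights, a replicate block, a filter on dim clusters, an intensity trend, another centring, the mean of all clusters of a gene, each array left out, and, added after seeing the data, a fit on the 12 laser-captured arrays.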

Additional observations from a re-analysis of the deposited data

Results flagged for a closer look

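Of the 40 combinations of a gene and a compartment examined for an array far from the others by Dixon's test at the 95% level, 2 stood out, and chance flags about 1 in 20. LAMB1 in stroma close to follicles replicate 2 read 7.9 where the other 3 arrays all read 8.0, a gap of 1 rounding step. LAMC1 in theca replicate 4 read 8.1 where the other arrays lay between 8.3 and 8.4.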

How the results depend on the processing

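Of the 44 differences called for the 10 genes in 7 comparisons, 38 kept their call in all fits run and none changed direction while called. Those that lost it were HSPG2 and NID1 in theca against stroma close to follicles, HSPG2 in theca against interstitial stroma, LAMA2 and LAMA3 in tunica albuginea against interstitial stroma, and NID2 in tunica albuginea against stroma close to follicles. The cause was not tested. The fit on the groups compared gave adjusted p = 0.0618 for HSPG2 in the first of these. With the replicate block, adjusted p was 0.0789 and 0.115 for HSPG2 and 0.104 for NID2, and the block changed no other call of the 10 genes. Centring on the brightest 60% of clusters left NID1 at 0.552 (adjusted p = 0.0673), array weights left LAMA2 at -1.50 (0.0548) and NID2 at 1.02 (0.0608), and the fit on laser-captured arrays, chosen after seeing the data, left NID2 at adjusted p = 0.0894.

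Leaving out 1 array gave 6 to 7 called genes for theca against interstitial stroma and 6 to 8 against stroma close to follicles. In the same fits 6508 to 7930 and 7060 to 8455 of all clusters were called. For tunica albuginea, 5 to 6 genes were called against interstitial stroma and 4 to 5 against stroma close to follicles. There, 219 to 477 and 627 to 1022 of all clusters were called. Between the stromal compartments 0 to 1 of the genes and 0 to 152 of all clusters were called. The F test called 8 to 9 of the genes and 8480 to 9788 of all clusters. The calls of NID1 and HSPG2 in theca against stroma close to follicles were lost without theca replicate 1 or 4, or replicate 2 or 4 of that stroma, NID1 also without theca replicate 3 or stroma replicate 3, and HSPG2 also without theca replicate 6 or stroma replicate 1.

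Changes of sign concerned differences that were not called. LAMA5 turned to -0.048 (theca against interstitial stroma) and -0.038 (theca against the other compartments averaged) with the centring, to 0.054 (theca against tunica albuginea) and -0.013 (tunica albuginea against interstitial stroma) with array weights, and to 0.025 (theca against tunica albuginea) with the replicate block. Without 1 array, LAMA5 ranged from -0.045 to 0.075, from -0.02 to 0.10, from -0.10 to 0.10 and from -0.092 to 0.108 in the comparisons of theca with interstitial stroma, the average and tunica albuginea and of tunica albuginea with interstitial stroma. Between the stromal compartments LAMA3 ranged from -0.308 to 0.025 and HSPG2 from -0.133 to 0.067.

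Over all clusters, calls fell from 407 to 204 (tunica albuginea against interstitial stroma), from 1017 to 434 (against stroma close to follicles) and from 9 to 0 (between the stromal compartments) in fits on the groups compared, and the last ran from 0 to 152 when 1 array was left out. Signals near the array median limit what can be said of LAMA5, of LAMA3 in theca and of LAMA4 in tunica albuginea and stroma close to follicles.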
